A study of Rattus norvegicus and synthetic construct with 4 samples.

Results

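Promoter elements of genes for glycolysis and the citrate cycle were followed in a STARR-seq screen of human islet sequences. In STARR-seq each plasmid carries a candidate sequence within its own transcript, so that RNA over plasmid DNA measures the reporter output of that sequence. There were 3 RNA libraries from the rat insulinoma line INS1 832/13, a clone of insulin-secreting tumour cells that serves as a beta cell model, each taken 24 h after electroporation of 10 ug of plasmid. They were set against 1 library of the same plasmid pool as input DNA, and no genotype or treatment differed between the RNA libraries. Every tested sequence was human, 198 bp long, and read out in a rat cell.

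The members were elements of the count table whose midpoint lay within 2 kb of a listed gene start, on the human build hg19. This rule used no reporter value, but every barcode of the count table had RNA in at least 1 library. Of all 35153 barcodes, 13180 had RNA in 1 RNA library, 10692 in 2 and 11281 in all of them. A barcode or element without RNA was therefore not among those measured. The list held 30 starts, of which 29 belonged to 28 named genes (2 of them to ALDOA) and 1, on chromosome 22, carried no gene name. This gave 18 elements of 3378 in the table, at 12 named genes and at the unnamed start. Another 6 named genes had an element that was paired with barcodes but not counted: DLAT with 12 barcodes, SLC2A1 with 7, GOT1 with 2, and PDHB, CS and SUCLG1 with 1 each. For GPI, PFKL, PGAM1, PKM, LDHA, IDH3A, IDH2, ACLY, GOT2 and GLUD1 no element was analysed here. An element was assigned to a gene by this distance alone. Listed starts are given to the kb, and exons, introns and UTRs were not annotated here.

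Glycolysis splits glucose into pyruvate in the cytosol, and the citrate cycle oxidises the carbon of pyruvate in mitochondria. In pancreatic beta cells this route couples blood glucose to ATP production, which closes potassium channels of the plasma membrane and starts insulin release. Beta cells also feed pyruvate into the cycle by carboxylation and move reducing equivalents into mitochondria through malate and aspartate shuttles. Most of these enzymes are present in nearly all cell types.

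Each plasmid was tagged by a random barcode of 16 bases, and the barcodes are the parts of the reporters whose sequence was given in the files. The 198-bp inserts were not printed because no human genome was used here. The following barcodes, printed here in lower case, belonged to the MDH2 element and to the upper element at the chromosome 22 start, the members called above the library centre. They are those with at least 5 RNA counts in 2 or 3 of the RNA libraries, picked by the same counts as the calls. A further 4 MDH2 barcodes reached 5 RNA counts in 1 library, and 1 did so in none.
MDH2 barcode 1: tcgatcttgaattatt, with 64, 41 and 88 RNA counts in libraries 1, 2 and 3, against 38 DNA counts.
MDH2 barcode 2: tgtcgcctctcgggtt, with 24, 20 and 39 RNA counts, against 40 DNA counts.
MDH2 barcode 3: ttaaactctgggaagc, with 24, 1 and 29 RNA counts, against 40 DNA counts.
MDH2 barcode 4: taacggcaggatcagg, with 2, 18 and 15 RNA counts, against 26 DNA counts.
MDH2 barcode 5: gtcccttactctcatg, with 15, 2 and 14 RNA counts, against 42 DNA counts.
Chromosome 22 barcode 1: gtcggcttaggtatgc, with 80, 21 and 80 RNA counts, against 21 DNA counts.
Chromosome 22 barcode 2: taacttagttcataca, with 18, 43 and 56 RNA counts, against 78 DNA counts.
Chromosome 22 barcode 3: caaactctttagctga, with 26, 27 and 37 RNA counts, against 30 DNA counts.
Chromosome 22 barcode 4: tggacacatataatta, with 27, 8 and 18 RNA counts, against 25 DNA counts.
Chromosome 22 barcode 5: gcaatgtgaagtgtac, with 14, 19 and 16 RNA counts, against 11 DNA counts.
Chromosome 22 barcode 6: ttaactttcagaagca, with 24, 12 and 1 RNA counts, against 55 DNA counts.
Chromosome 22 barcode 7: tcctaagtacaagaca, with 13, 6 and 4 RNA counts, against 18 DNA counts.

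The RNA libraries held 211117, 197554 and 218571 counts in the whole table, and the plasmid DNA library held 1079728. The members took 942, 749 and 985 of the RNA counts, a share of 0.425% ± 0.0401 (SD, n = 3), and 4647 or 0.430% of the DNA counts. These shares differed by less than the SD between the RNA libraries. A member was carried by 2 to 28 counted barcodes (median 7, against 6 over all elements) and by 22 to 806 DNA counts (median 206, against 197). RNA/DNA is given below relative to the centre of the library, set by TMM normalization, in which 1 is the centre and not the output of a control sequence.

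Of the 18 members, 2 passed above the centre by edgeR's quasi-likelihood test (adjusted p under 0.05), the element at MDH2 and an element at the chromosome 22 start. That is 11.1% of the members, against a background of 8.88% of all 3378 elements called above, so the share of calls was near that of the library. None of the members fell below the centre in edgeR, with 0 also at an unadjusted p under 0.05, and the background there was 0% of all elements. Below the centre, limma-voom called 0 of 18 members and 4.03% of all elements, limma on barcode medians 0 of 18 and 0.651%, and DESeq2 0 of the 11 members with an adjusted p and 0%. Above it, DESeq2 called 3 of those 11 members, against 23.2% of the 1806 elements with an adjusted p. Limma-voom called 4 of 18 members above, against 15.1% of all elements, and limma on barcode medians 4 of 18, against 10.7%. The median log2 RNA/DNA was 0.02 over the members and -0.03 over all elements. In the separate RNA libraries the median of the members was 0.60, -0.20 and 0.24, against -0.11, -0.08 and -0.12 over all elements. The 2 called elements held 11.5% of the members' DNA counts and 37.4% ± 6.02 of their RNA counts (SD, n = 3). They were called on these same counts, so the higher RNA share follows from the calls.

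Entry of glucose carbon was represented first by PFKM, the muscle form of phosphofructokinase, which catalyses the committed step of glycolysis. Its element, on chromosome 12 from 48499718 to 48499915, had 145, 93 and 111 RNA counts, against 347 DNA counts over 11 barcodes. RNA/DNA was 3.58, 2.40 and 2.66 times the centre, above it in 3 of 3 libraries, with little spread between them. The log2 ratio was 1.53 ± 0.57 (SE; 95% interval 0.39 to 2.66), which did not pass in edgeR (adjusted p = 0.0917, unadjusted 0.00904). Output was spread over several plasmids: 8 of the 11 barcodes reached 5 RNA counts in at least 1 library, and the leading barcode held 19.8% of the RNA. A further fit left out the leading barcode of every element with at least 3 barcodes and ran TMM again. In that fit the PFKM log2 ratio was 2.06 and the edgeR adjusted p was 0.0353. Since all such elements changed and the centre was set anew, this is not the effect of the PFKM barcode alone. DESeq2 gave an adjusted p of 0.0153, limma-voom 0.000514 and limma on barcode medians 0.0343. PFKM did not pass in the other edgeR settings. Their adjusted p ran from 0.0635 with DESeq2 size factors to 0.877 when barcode RNA counts of 1 to 4 were taken as 0. With library totals in place of TMM it was 0.483 (log2 0.79). The call for PFKM thus depended on the test and the setting.

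ALDOA encodes aldolase A, which cleaves fructose bisphosphate into triose phosphates. It had 4 counted elements on chromosome 16, each overlapping at least 1 of the others. All lay more than 1 kb below the second listed start. The element from 30075441 to 30075638 was the best measured of them, with 27 barcodes. It had 51, 62 and 43 RNA counts, against 806 DNA counts, and RNA/DNA of 0.542, 0.689 and 0.444 times the centre. These values lay below the centre in 3 of 3 libraries, but the log2 ratio of -0.84 ± 0.65 (SE; 95% interval -2.14 to 0.46) did not pass (edgeR adjusted p = 0.726). Of its 27 barcodes, 21 reached 5 RNA counts in none of the libraries. A further ALDOA element, from 30077044 to 30077241, had its midpoint 142 bp from the second listed start. It had 1 paired barcode and no counts, so its output was not measured.

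The ALDOA element from 30075541 to 30075738 had 4 barcodes and 18, 3 and 1 RNA counts, against 102 DNA counts. Its RNA/DNA differed 18.5-fold between the highest and the lowest library. The elements from 30075641 to 30075838 and from 30075650 to 30075847 are nearly the same sequence, offset by 9 bp with 189 bp shared, and each had 9 barcodes. The first had RNA/DNA of 0.806, 0.225 and 0.653, and the second had 1.46, 0.478 and 1.07. The second was higher in 3 of 3 libraries, by 0.87 ± 0.18 on the log2 scale (SD, n = 3; exact sign-flip permutation p = 0.25, the smallest that 3 libraries allow). Neither passed against the centre, with log2 ratios of -0.83 ± 1.18 and 0.01 ± 1.04 (SE). The other 5 pairs among the 4 ALDOA elements changed sign between libraries.

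TPI1 encodes triose phosphate isomerase, which interconverts the triose phosphates. The TPI1 element (chromosome 12, 6976605 to 6976802) had 15, 67 and 80 RNA counts, against 211 DNA counts over 5 barcodes. RNA/DNA was 0.609, 2.85 and 3.16 times the centre, so library 1 lay below it and the other libraries above. A barcode with 29 DNA counts gave 0, 38 and 53 of these RNA counts. The log2 ratio of 1.14 ± 0.91 (SE) did not pass (edgeR adjusted p = 0.750).

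GAPDH, which oxidises glyceraldehyde phosphate and is widely used as a reference gene, had 2 elements on chromosome 12 whose starts lay 323 bp apart. The one from 6643564 to 6643761 had 28, 48 and 4 RNA counts, against 115 DNA counts over 4 barcodes, which gave 2.09, 3.74 and 0.290 times the centre. A barcode with 75 DNA counts held 90.0% of its RNA. In the fit without the leading barcode of each element the log2 ratio was -0.42 in place of 1.02. The one from 6643887 to 6644084 had 5, 16 and 33 RNA counts, against 22 DNA counts over 2 barcodes. Its log2 ratio of 2.78 was the highest among the members, but the 95% interval ran from -1.26 to 6.83 and the edgeR adjusted p was 0.692. Limma on barcode medians called it at an adjusted p of 0.00740, limma-voom did not (0.226), and DESeq2 gave it no adjusted p. The upper element minus the lower was -0.01, 0.80 and 5.26 on the log2 scale in libraries 1, 2 and 3 (exact sign-flip permutation p = 0.50).

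ENO1 encodes enolase, which forms phosphoenolpyruvate. The ENO1 element (chromosome 1, 8938648 to 8938845) was the lowest of the members, with a log2 ratio of -1.19 ± 1.64 (SE; edgeR adjusted p = 0.936). It had 18, 10 and 1 RNA counts, against 192 DNA counts over 8 barcodes, or 0.803, 0.467 and 0.0434 times the centre. A single barcode gave 14 of the 18 RNA counts in library 1, and the 95% interval of the log2 ratio, -4.45 to 2.07, spans the centre widely. Over the 9 glycolysis elements, of 5 genes among 11 listed, 0 were called, 5 had a log2 ratio above 0, and the median was 0.01. Over all elements 8.88% were called above the centre, 48.8% had a log2 ratio above 0, and the median was -0.03. With 9 elements, 0 calls cannot be told apart from that share.

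Entry of pyruvate into mitochondria was represented by PC and DLD. Pyruvate carboxylase, encoded by PC, makes oxaloacetate from pyruvate and is abundant in beta cells. The PC element, on chromosome 11 from 66725754 to 66725951, had 14, 22 and 4 RNA counts, against 201 DNA counts over 7 barcodes. RNA/DNA was 0.597, 0.981 and 0.166, with no library above the centre, and the log2 ratio was -0.78 ± 1.54 (SE; edgeR adjusted p = 0.964). DLD encodes the lipoamide dehydrogenase that the pyruvate and oxoglutarate dehydrogenase complexes share. The DLD element (chromosome 7, 107531532 to 107531729) had 23, 2 and 32 RNA counts, against 156 DNA counts over 3 barcodes. Of the 32 counts in library 3, 93.8% came from 1 barcode. The log2 ratio of DLD was 0.04 ± 1.51 (SE), and RNA/DNA differed 14.9-fold between libraries.

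Among the citrate cycle genes MDH2 stood highest. It encodes mitochondrial malate dehydrogenase, which regenerates oxaloacetate and also serves the malate and aspartate shuttle. Its element, on chromosome 7 from 75677224 to 75677421, had 147, 101 and 218 RNA counts, against 298 DNA counts over 10 barcodes. RNA/DNA was 4.23, 3.04 and 6.09 times the centre, a mean of 4.45 ± 1.54 (SD over the 3 RNA libraries, which share the 1 DNA library), and it was above the centre in 3 of 3 libraries. The log2 ratio was 2.15 ± 0.52 (SE; 95% interval 1.11 to 3.20), with an adjusted p of 0.00166 in edgeR, and it stood at percentile 92.5 of all elements.

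The MDH2 output came from most of its plasmids but unevenly. The barcode tcgatcttgaattatt held 43.5, 40.6 and 40.4% of the element's RNA in libraries 1, 2 and 3, and 12.8% of its DNA. Of the 10 barcodes, 9 reached 5 RNA counts in at least 1 library and 2 in all 3. In the fit without the leading barcode of each element the log2 ratio of MDH2 was 1.96 and the edgeR adjusted p was 0.0630. The call was also lost without RNA replicate 3 (log2 1.86, adjusted p = 0.0920), with library totals in place of TMM (log2 1.41, adjusted p = 0.0966) and when barcode RNA counts of 1 to 4 were taken as 0 (log2 1.65, adjusted p = 0.263).

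FH encodes fumarase, which hydrates fumarate to malate. The FH element, on chromosome 1 from 241682938 to 241683135, had the most barcodes among the members, 28. It had 22, 59 and 51 RNA counts, against 748 DNA counts, or 0.252, 0.707 and 0.568 times the centre. All 3 libraries lay below the centre, and the log2 ratio was -0.97 ± 0.72 (SE; 95% interval -2.41 to 0.46; edgeR adjusted p = 0.697). Of the FH barcodes, 23 of 28 reached 5 RNA counts in no library. OGDH encodes the oxoglutarate dehydrogenase subunit of the complex that makes succinyl-CoA. The OGDH element (chromosome 7, 44646102 to 44646299) had 2, 1 and 13 RNA counts, against 87 DNA counts over 2 barcodes, and 12 of the 13 counts in library 3 came from 1 barcode. With a log2 ratio of -0.95 ± 1.78 (SE), OGDH was not resolved from the centre at this depth.

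The cytosolic branches were represented by MDH1 and IDH1. MDH1 encodes cytosolic malate dehydrogenase, the partner of MDH2 in the malate and aspartate shuttle. Its counted element, on chromosome 2 from 63816013 to 63816210, had 42, 51 and 61 RNA counts, against 138 DNA counts over 5 barcodes. RNA/DNA was 2.61, 3.31 and 3.68 times the centre, above it in 3 of 3 libraries, and the SD between libraries on the log2 scale, 0.25, was the smallest of the members. A barcode with 25 DNA counts gave 33, 38 and 30 of these RNA counts, or 65.6%, while one with 49 DNA counts gave 1 in all. The log2 ratio of MDH1 was 1.68 ± 0.98 (SE; 95% interval -0.27 to 3.62; edgeR adjusted p = 0.514). It was 0.79 in the fit without the leading barcode of each element. Limma-voom called it at an adjusted p of 0.0295. A second MDH1 element, from 63815484 to 63815681, had 8 paired barcodes and no counts in the table.

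IDH1 encodes the cytosolic isocitrate dehydrogenase that makes NADPH. The IDH1 element (chromosome 2, 209119698 to 209119895) had 11, 4 and 1 RNA counts, against 53 DNA counts over 2 barcodes. Its log2 ratio was -0.20 ± 1.80 (SE; edgeR adjusted p = 0.999), and all 11 counts in library 1 came from 1 barcode. RNA/DNA was 1.78, 0.676 and 0.157 times the centre, so that IDH1 lay above it in 1 library and below it in the others.

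The unnamed start on chromosome 22 had 2 elements that did not overlap, with starts 448 bp apart. The upper one, from 41865044 to 41865241, had 202, 136 and 212 RNA counts, against 238 DNA counts over 7 barcodes. RNA/DNA was 7.27, 5.12 and 7.42 times the centre, a mean of 6.60 ± 1.29 (SD, n = 3). The log2 ratio was 2.72 ± 0.50 (SE; 95% interval 1.73 to 3.72), with an adjusted p of 1.75e-05 in edgeR, at percentile 96.3 of all elements. It kept an adjusted p under 0.05 in each of the 12 other settings and tests that were run, from 1.11e-10 in limma-voom to 0.0304 when barcode RNA counts of 1 to 4 were taken as 0. All 7 barcodes reached 5 RNA counts in at least 2 libraries, and 5 did so in all 3. The leading barcode held 32.9% of the RNA, and in the fit without the leading barcode of each element the log2 ratio was 2.67.

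The lower chromosome 22 element, from 41864596 to 41864793, had 121, 51 and 59 RNA counts, against 333 DNA counts over 11 barcodes. RNA/DNA was 3.11, 1.37 and 1.48 times the centre, and the log2 ratio of 0.99 ± 0.70 (SE) did not pass (edgeR adjusted p = 0.664). The upper element exceeded the lower one by 1.22, 1.89 and 2.32 on the log2 scale in the 3 libraries, a mean of 1.81 ± 0.55 (SD, n = 3; exact sign-flip permutation p = 0.25, the smallest that 3 libraries allow). The ranges of the elements over the libraries did not overlap.

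Across the members, 6 lay above the centre in 3 of 3 libraries (33.3%, against 25.8% of all elements): MDH2, both chromosome 22 elements, PFKM, MDH1 and the upper GAPDH element. Another 5 lay below it in every library, at PC, ENO1, FH and ALDOA (2 elements), and the other 7 were on both sides. The share of all elements below in every library is not given here, so no comparison is made. PC was at the centre in library 2, with RNA/DNA of 0.981 and a log2 ratio of 0.0007 with the pseudocount. The SD of log2 RNA/DNA between libraries had a median of 1.10 over the members, against 0.81 over all elements, and ranged from 0.25 for MDH1 to 1.96 for DLD. Across the 18 members the log2 ratios of library pairs 1 and 2, 1 and 3, and 2 and 3 correlated with Pearson's r of 0.600, 0.451 and 0.548, against 0.522, 0.530 and 0.525 across all elements. These values describe elements that share the libraries and the DNA count, and elements are not independent replicates. The 95% interval of the log2 ratio included 0 for 15 members, all but MDH2, the upper chromosome 22 element and PFKM.

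The number of barcodes differed widely between members, and calls over the whole table are given by that number as a description. Among all elements the lowest log2 ratio called was 2.25 with 2 to 4 barcodes, 1.87 with 5 to 9, 1.41 with 10 to 19 and 0.97 with 20 or more. The members numbered 6, 7, 3 and 2 in these classes. Both GAPDH elements, DLD, OGDH, IDH1 and an ALDOA element fell in the lowest class, where 3.38% of all elements were called. The upper GAPDH element, at 2.78, and PFKM, at 1.53, exceeded the lowest called ratio of their classes and were not called. FH and the ALDOA element from 30075441 were the members of the highest class, where 93 of 423 elements were called, and both had ratios below the centre.

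Over the 154 barcodes of the members, 36, 31 and 38 reached 5 RNA counts in libraries 1, 2 and 3. These were 23.4, 20.1 and 24.7%, with exact 95% intervals of 16.9 to 30.9, 14.1 to 27.3 and 18.1 to 32.3%, against 22.7, 22.1 and 23.4% of all 35153 barcodes. The intervals take barcodes as independent and cover counting error only, since PCR reads here carry no stated molecular identifier. Such barcodes held 87.8, 82.5 and 89.2% of the members' RNA counts. Of the members' barcodes, 9 (5.84%) reached 5 counts in 3 of 3 libraries, against 6.43% of all barcodes. Of these 9, 7 belonged to MDH2 and the upper chromosome 22 element, which were called on the same counts. The other 2 were the leading barcodes of PFKM and MDH1.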

How the data were processed

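The authors deposited raw counts per barcode for 1 plasmid DNA and 3 RNA libraries, and a table that pairs barcode sequences with elements, as the file headers show. The counts are whole numbers with different totals in each library. The count table is named as filtered. Its filter, the trimming and the counting tool were not given in the sources used here. It holds no barcode without RNA, which limits what can be said of low output and of calls below the centre. Per the submitters' processing notes, coordinates are on hg19. Starts in the files count from 0 and are printed counted from 1. Depth is given as total counts per library.

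Libraries were grouped by their titles. Barcode counts were added up per element, and RNA was compared with DNA in a quasi-likelihood fit with TMM in edgeR 4.0.16 (R 4.3.3) across all 3378 elements, with p-values adjusted by Benjamini-Hochberg and a threshold of 0.05. Every element had at least 2 barcodes and 10 DNA counts. SEs are the absolute log2 ratio over the square root of F, and 95% intervals use the t quantile of the fit. The 1 DNA library has no replicate. SDs over the RNA libraries and limma on barcode medians leave out its error. The edgeR SEs and p-values include it only as a dispersion estimated from the RNA libraries. The RNA replicates are called biological in the series text, and the p-values measure the spread between electroporations of 1 plasmid pool. Log2 ratios of a single library, their medians and SDs used a pseudocount of 0.5 counts. Alternatives were other scalings, DESeq2 1.42.0, limma 3.58.1, filters, barcode weights and leaving out each RNA replicate. The edgeR fit was tested on simulated data. Tables were made with Python 3.11.15.

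The members, gene lists and tests were chosen with earlier results of these data known. The rule for named elements took those called, those with at least 10 barcodes and, per gene, the one with the most barcodes; the others were compared with a neighbour at the same start.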

Additional observations from a re-analysis of the deposited data

How the results depend on the processing

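The count of members above the centre was 2 with edgeR (300 of 3378 over all elements). It was 2 again with DESeq2 size factors (312 of 3378 over all), at least 5 barcodes (268 of 2223), or barcodes with at least 20 DNA counts (216 of 3000). It was 1 with library totals in place of TMM (169 of 3378 over all elements) and 1 when barcode RNA counts of 1 to 4 were taken as 0 (115 over all), 3 with the DESeq2 Wald test (419 over all), 4 with limma-voom (511) and 4 with the median over barcodes (361), so that the count over all elements moved the same way as the members' in these settings. Leaving out RNA replicates 1, 2 and 3 in turn gave 2, 2 and 1 (289, 193 and 218 over all). Without the barcode with the most RNA in every element of at least 3 barcodes it was 2 (274 over all), with PFKM called and MDH2 not. The members' count below the centre was 0 in every setting run, where all 3378 elements had 136 below with limma-voom, 50 with library totals, 22 with barcode medians, 7 with low RNA counts set to 0, 3 without RNA replicate 1 and 0 in the other settings over all elements. Midpoint windows of 1 kb and 0.5 kb kept 13 and 5 members, with the 2 edgeR calls (300 of 3378 over all).

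The median log2 ratio of the members, 0.02, was -0.72 with library totals, where the median of all elements was -0.77, and -0.70 with low RNA counts set to 0, where it was -0.85. It was 0.47 with at least 5 barcodes and 0.99 for both narrower windows, and -0.28 to 0.29 without each RNA replicate. The mean over libraries, as a median of the members, was -0.33 with a pseudocount of 0.5 and 0.29 with 5.

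The sign against 0 turned for 4 elements, none of them called. Several settings moved the median of all elements, to -0.77 with library totals, -0.32 with limma-voom, -0.85 with low RNA counts set to 0 and -0.24 with barcode medians. The ALDOA element from 30075650 was at -0.74 with library totals, -0.10 with limma-voom, -0.0267 with at least 5 barcodes, -0.70 with low RNA counts set to 0 and -0.0485 with barcode medians, and ranged from -0.40 to 0.34 without each RNA replicate. In the first 5 of these settings it stayed above the median of all elements, which was -0.04 with at least 5 barcodes. DLD was at -0.70, -0.54, -0.71 and -0.34 with library totals, limma-voom, low counts set to 0 and barcode medians, and ranged from -0.53 to 0.57 without each replicate. It stayed above the median of all elements with library totals and with low counts set to 0, and lay below it with limma-voom and barcode medians. GAPDH from 6643564 was at -0.42 in the fit without the leading barcode of each element, and IDH1 ranged from -1.29 to 0.30 without each replicate. DESeq2 gave no adjusted p for 7 members. No paired analysis was possible because the RNA libraries share the 1 DNA library. The causes of these shifts were not tested.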
